A study of Bos taurus with 11 samples.

Results

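The miR-17-92 cluster and its paralog around miR-106a were followed in small RNA libraries from mammary biopsies of lactating dairy cows. The 10 mature miRNAs were chosen by name, as the rows of the deposited table that equal a fixed list of identifiers, a rule that uses no measured value. The list itself was set with earlier results of these data known. The 10 members are bta-miR-17-5p, bta-miR-17-3p, bta-miR-18a, bta-miR-19a, bta-miR-20a, bta-miR-19b, bta-miR-92a, bta-miR-106a, bta-miR-20b and bta-miR-18b, out of 796 miRNAs listed, of which 754 had a read in at least 1 library. The libraries came from 5 Holstein and 6 Montbéliarde cows, both in mid-lactation and on a common diet, with no other treatment, and each cow gave 1 library from a biopsy of the rear udder. The cows had calved several times on average, their ages are not given in the sources used here, and a further Holstein cow was left out of the study for mastitis. A biopsy holds epithelial, stromal, vascular and blood cells together, so fewer cells of a type and less RNA per cell cannot be told apart. Libraries are called by their tags (CNLX1 to CNLX9 for Holstein, CNLX13 to CNLX23 for Montbéliarde, odd numbers only), and since the breeds take separate stretches of that numbering, tag order and breed cannot be told apart.

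The miR-17-92 cluster is a polycistron: a single primary transcript carries several hairpins, which are cut out and processed into separate mature miRNAs. It is best known for promoting proliferation and survival and as an oncogenic cluster in lymphoid and epithelial tumours, with transcription driven by MYC and E2F factors. Its paralog, miR-106a-363, lies on another chromosome and arose by duplication, as did the miR-106b-25 cluster. Mature miRNAs recognise their targets mainly through the seed near the 5′ end, and the members other than miR-17-3p fall into 4 seed groups that serve as families. The miR-17 seed is shared by miR-17-5p, miR-20a, miR-106a and miR-20b, known to repress *CDKN1A*, *E2F1* and *TGFBR2*. The miR-18 seed is that of miR-18a and miR-18b, known to repress *CTGF* and *ESR1*, the miR-19 seed that of miR-19a and miR-19b, and the miR-92 seed that of miR-92a, known to repress *ITGA5* and *BCL2L11*. In RefSeq on the ARS-UCD2.0 assembly the order of hairpin genes in the first cluster was *MIR17*, *MIR18A*, *MIR19A*, *MIR20A*, *MIR19B* and *MIR92A-1*, and the paralog held *MIR363*, *MIR92A-2*, *MIR19B-2*, *MIR20B*, *MIR18B* and *MIR106A*. Thus miR-19b and miR-92a each have a gene in both clusters and are counted in 1 row for both, 5 members come from the first cluster only and 3 (miR-106a, miR-20b and miR-18b) from the paralog only. RefSeq gene names and their order were used here, and no coordinates, because the authors mapped to another assembly.

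Counted reads per library lay between 7431936 and 16808976 for Holstein cows and between 6087865 and 11395785 for Montbéliarde cows, so that a count of 3 reads, taken as the floor, amounted to between 1.81 and 5.0 normalized reads. Levels are normalized read counts: raw counts divided by the size factor of the library. All 10 members passed the filter of at least 10 reads summed over the libraries, which 550 miRNAs passed. Each member but miR-18b had reads in 11 of 11 libraries, and miR-18b had reads in 10 of 11. Small RNA reads cover the whole mature miRNA, so levels of different members were compared without length scaling, although the efficiency of ligation and amplification of each sequence was not measured. Epithelial miRNAs, the check of the labelled tissue, were present throughout: miR-141 averaged 310902 normalized reads in Holstein and 188093 in Montbéliarde, and miR-200c averaged 52450.7 and 34373.6. Another of them, miR-205, averaged 18414.6 and 23981.2.

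One member dominated. miR-92a averaged 47333.7 ± 7567 normalized reads (SD, n = 11) and ranked 22 among 796 miRNAs by mean level, whereas the other 9 members ranked between 109 and 304. Together the 10 members took 0.519% ± 0.104 of the counted reads (SD, n = 11), and miR-92a held 93.8% ± 1.77 of the members' reads. After miR-92a came miR-19b (1338 ± 345), miR-17-5p (735 ± 97.9), miR-20a (313 ± 43.5), miR-17-3p (194 ± 48.2), miR-18a (176 ± 95.1), miR-19a (113 ± 38.6), miR-20b (68.5 ± 21.1), miR-106a (65.9 ± 24.4) and miR-18b (22.6 ± 13.8 normalized reads). Members of the paralog only were thus the 3 lowest, with 0.318% ± 0.112 of the members' reads between them.

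**Figure D1:**
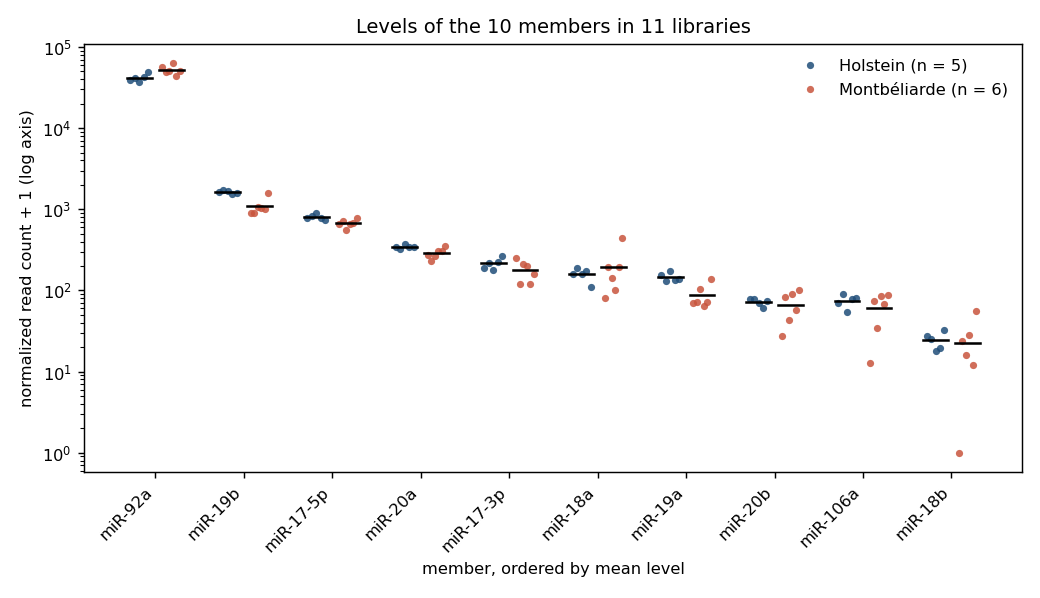
Normalized read count plus 1 (log axis) of each member, ordered by mean level, in 5 Holstein (blue) and 6 Montbéliarde (red) libraries. Each point is a library and each bar the breed mean. miR-92a lies far above miR-19b (36.1-fold, geometric mean over libraries), and the lowest point is the library without a read of miR-18b.

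The order of neighbours was tested within libraries, with an exact two-sided sign-change test on the log2 ratio of their counts (9 pairs, Benjamini-Hochberg adjusted), for which the smallest p possible was 0.000977. Neighbours were set by mean level over these same libraries, so the direction of each pair came from the data tested. Of the 9 neighbouring pairs, 7 differed. As the geometric mean over libraries, miR-92a exceeded miR-19b 36.1-fold, miR-19b exceeded miR-17-5p 1.78-fold, miR-17-5p exceeded miR-20a 2.35-fold, miR-20a exceeded miR-17-3p 1.65-fold and miR-106a exceeded miR-18b 3.47-fold, each in 11 of 11 libraries (exact p = 0.000977, adjusted p = 0.00176). miR-18a lay above miR-19a in 9 of 11 libraries (1.5-fold, exact p = 0.0117, adjusted p = 0.0151), and miR-19a above miR-20b in 9 of 11 (1.63-fold, exact p = 0.00684, adjusted p = 0.0103). miR-17-3p and miR-18a did not differ beyond their spread (1.18-fold, higher in 8 of 11, exact p = 0.404, adjusted p = 0.404), nor did miR-20b and miR-106a (1.10-fold, higher in 7 of 11, exact p = 0.325, adjusted p = 0.366). The 5 pairs ordered alike in 11 of 11 libraries have that order in both breeds by definition, and the other pairs are given by breed. miR-18a lay above miR-19a in 3 of 5 Holstein libraries (1.08-fold) and in 6 of 6 Montbéliarde libraries (1.97-fold), and miR-19a above miR-20b in 5 of 5 (2.01-fold) and 4 of 6 (1.37-fold). miR-17-3p lay above miR-18a in 5 of 5 Holstein and 3 of 6 Montbéliarde libraries, and miR-20b above miR-106a in 2 of 5 and 5 of 6. Members cut from a single primary transcript differed widely in reads: within the first cluster, miR-17-5p averaged 735 normalized reads and miR-19a 113.

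Both arms of the *MIR17* hairpin were counted. The 5p arm, the usual guide strand, exceeded the 3p arm in each of the 11 libraries, and the 3p arm gave 0.269 ± 0.0805 reads per read of the 5p arm (SD, n = 11, range 0.166 to 0.392). That arm ratio was 0.269 ± 0.0590 in Holstein and 0.269 ± 0.101 in Montbéliarde (log2 difference -0.06, SE 0.27, exact permutation p = 0.846). No correlation of the levels of the 2 arms over libraries was detected (Pearson's r = 0.04, permutation p = 0.909, adjusted p = 0.909, Spearman's rho = 0.08, p = 0.817, adjusted p = 0.897, n = 11), and r was 0.20 without CNLX5 and CNLX17.

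Between breeds, the clearest estimates were in the miR-19 seed group. miR-19b reached 1631, 1731, 1689, 1562 and 1595 normalized reads in the 5 Holstein libraries, against a lowest value of 895, a median of 1028 and a highest of 1588 in the 6 Montbéliarde libraries. Of the 6 Montbéliarde libraries, 5 lay below every Holstein library, and CNLX23 lay inside the Holstein range. The fold change, Montbéliarde over Holstein, was -0.60 on the log2 scale (SE 0.17), or 1.52-fold higher in Holstein, and did not pass after adjustment (edgeR quasi-likelihood test, adjusted p = 0.171).

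miR-19a, with far fewer reads, had a like pattern. Its Holstein libraries gave 153, 129, 171, 132 and 138 normalized reads, and the Montbéliarde libraries a lowest value of 63.9, a median of 71.1 and a highest of 139. Again 5 Montbéliarde libraries lay below all Holstein libraries and CNLX23 lay among them. The log2 fold change was -0.76 (SE 0.23), or 1.69-fold higher in Holstein (edgeR, adjusted p = 0.171).

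In the miR-17 seed group, the 2 abundant members were lower in most Montbéliarde libraries by a smaller margin. miR-17-5p gave 782, 835, 906, 781 and 747 normalized reads in Holstein, and a lowest value of 553, a median of 667 and a highest of 779 in Montbéliarde. miR-20a gave 340, 319, 372, 345 and 341 in Holstein, and 229, 287 and 351 as lowest, median and highest in Montbéliarde. For each of them 5 of 6 Montbéliarde libraries lay below the lowest Holstein library, while neither passed. The log2 fold change was -0.27 for miR-17-5p (SE 0.15, adjusted p = 0.412 by edgeR) and -0.26 for miR-20a (SE 0.17, adjusted p = 0.491 by edgeR). With library size as a covariate both estimates were -0.16, and that of miR-20a was -0.12 without CNLX15. The low members of this seed group, both from the paralog, overlapped between breeds. miR-106a averaged 73.6 ± 13.9 in Holstein (SD, n = 5) and 59.5 ± 30.4 in Montbéliarde (n = 6), with a log2 fold change of -0.27 (SE 0.38, adjusted p = 0.789 by edgeR), and miR-20b averaged 71.6 ± 7.23 and 65.9 ± 28.8 (-0.10, SE 0.30, adjusted p = 0.903 by edgeR). Without CNLX13 these estimates were -0.074 for miR-106a and 0.052 for miR-20b, without CNLX17 -0.15 and 0.0083, and without CNLX23 -0.42 and -0.26.

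miR-92a, which the study used among its control miRNAs for quantitative PCR, had the opposite sign. Its Holstein libraries gave 39696, 41966, 36580.4, 42854 and 48727 normalized reads, and the Montbéliarde libraries a lowest value of 43399.7, a median of 49919.6 and a highest of 62635. Of the 6 Montbéliarde libraries, 4 exceeded every Holstein library and the breeds overlapped in the rest. The log2 fold change was 0.30 (SE 0.14), or 1.23-fold higher in Montbéliarde (edgeR, adjusted p = 0.348).

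The miR-18 seed group and the 3p arm varied more among Montbéliarde libraries than between breeds. miR-18a averaged 157 ± 29.5 in Holstein (SD, n = 5) and 191 ± 129 in Montbéliarde (n = 6), where CNLX23 alone reached 438 (log2 fold change 0.27, SE 0.36, adjusted p = 0.789 by edgeR). Without CNLX23 the estimate for miR-18a turned to -0.17, without CNLX13 or CNLX19 it was 0.43 or 0.45, and with library size as a covariate 0.62, none of which passed. miR-18b averaged 23.5 ± 5.89 and 21.8 ± 18.8, from no read in CNLX13 to 54.9 in CNLX23 (-0.04, SE 0.54, adjusted p = 0.981 by edgeR). At this depth the interval of 2 standard errors for miR-18b, from -1.13 to 1.04, does not exclude a change in either direction. miR-17-3p averaged 215 ± 34.2 and 176 ± 53.7 (-0.30, SE 0.23, adjusted p = 0.553 by edgeR). Its estimate was -0.13 without CNLX15, -0.15 without CNLX21 and -0.56 with library size as a covariate (adjusted p = 0.228 by edgeR).

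Counted over the members, 0 of 10 passed at an adjusted p of at most 0.05 by edgeR, where 0.364% of the 550 miRNAs tested did so. At an unadjusted p of at most 0.05, 2 of 10 passed (miR-19a and miR-19b), against 14.2% of all miRNAs tested. Both were higher in Holstein, and 6.55% of all miRNAs tested passed in that direction. DESeq2 called the same 2 members, miR-19b with a log2 fold change of -0.59 (adjusted p = 0.0258) and miR-19a with -0.75 (adjusted p = 0.0453), where it called 4.24% of the 495 miRNAs to which it gave an adjusted p. Without CNLX23, edgeR called both (adjusted p = 0.0305 for each, with log2 fold changes of -0.74 for miR-19b and -0.96 for miR-19a), where it called 1.12% of the 536 miRNAs then tested. None of the 10 members had breeds that did not overlap in level, which 2% of all miRNAs tested had. Of the 10 members, 8 had a log2 fold change below 0, a count that was 6 with library size as a covariate, 7 when scaled by total counts only, and 6 (without CNLX13 or CNLX17) to 9 (without CNLX23) when 1 library was left out. The median over the 10 was -0.26, against a median of 0.03 over all miRNAs tested, of which 47.6% lay below 0. The 2 above 0 were miR-18a and miR-92a, and the members whose sign turned were miR-18a, miR-18b and miR-20b.

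**Figure D2:**
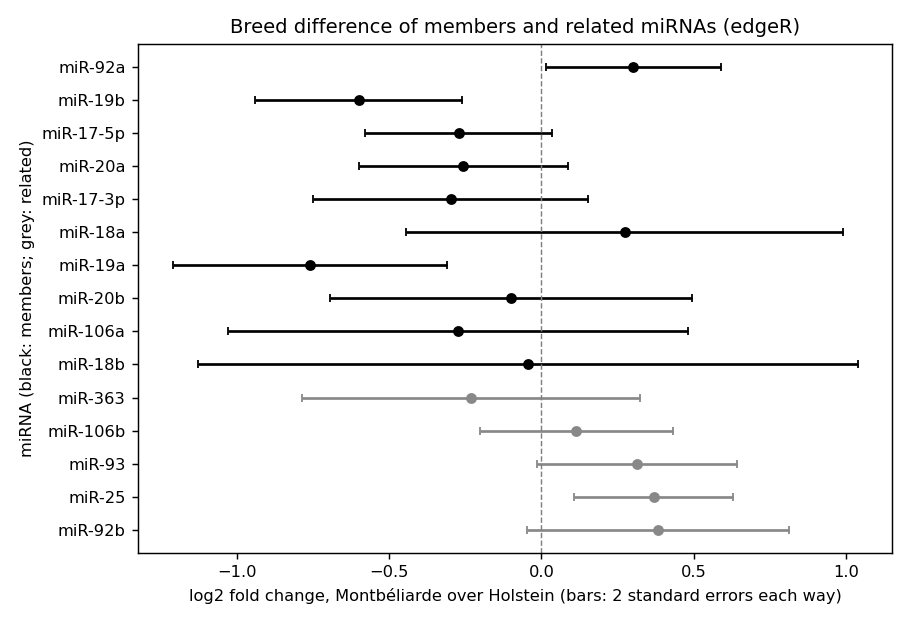
Log2 fold change, Montbéliarde over Holstein, from edgeR for the 10 members (black) and 5 related miRNAs (grey), where bars span 2 standard errors each way. The standard errors were derived from the test statistic, so bars are approximate and do not replace the test. The bar of miR-92a leaves out 0, while its unadjusted p was 0.0531 by the edgeR quasi-likelihood test. miR-19a (-0.76) and miR-19b (-0.60) lie farthest below 0, while miR-92a (0.30), miR-25 (0.37) and miR-92b (0.38) lie above it.

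Markers of other cell types were read beside these values. The 7 epithelial miRNAs, among them the miR-200 family, had 6 estimates higher in Holstein and 0 called. The epithelial estimate higher in Montbéliarde was that of miR-205 (log2 fold change 0.38). Among the others, the estimates ranged from -0.04 for miR-200a to -0.74 for miR-141. Their summed level ranged from 384413 to 485656 for Holstein and 186160 to 485711 for Montbéliarde. The 5 stromal miRNAs, led by miR-143, had 4 estimates higher in Montbéliarde and 0 called, with sums of 1511910 to 2303540 and 1926890 to 3866930. miR-143 averaged 1838350 normalized reads in Holstein and 2757170 in Montbéliarde, and the next highest, miR-199a-3p, 6009 and 9643. The stromal sum was thus almost all miR-143. The stromal estimate higher in Holstein was that of miR-145 (log2 fold change -0.27). The 5 leukocyte miRNAs had 5 estimates higher in Montbéliarde and 0 called, with sums of 18031 to 26952 and 17229 to 39422. The 3 erythroid miRNAs were estimated higher in Montbéliarde (3 of 3, 0 called, 23603 to 39552 in Holstein, 23429 to 57421 in Montbéliarde), as were 3 of the 4 muscle miRNAs in the table (0 called, 618 to 1849 and 519 to 1620.1), and both endothelial miRNAs were estimated higher in Holstein (0 called, 251466 to 330168 and 239684 to 297167). The other sums were mostly a single miRNA each: miR-141 (epithelial), miR-142-5p (leukocyte), miR-486 (erythroid), miR-126-5p (endothelial) and miR-133a (muscle). No marker in the table was at 0 in all libraries. CNLX23, the Montbéliarde library with both miR-19 levels inside the Holstein range, had the lowest leukocyte sum of the 11 libraries (17229), the lowest endothelial sum (239684), the lowest muscle sum (519) and a lower stromal sum (1926890) than any other Montbéliarde library, while its epithelial sum (312045) was below that of every Holstein library. Over the 11 libraries, miR-19b and the stromal sum had r = -0.77 (permutation p = 0.00646, adjusted p = 0.0775 over 12 relations of miR-19a and miR-19b with the 6 sums, rho = -0.63, p = 0.0444, adjusted p = 0.225, n = 11). It was -0.68 without CNLX1 and CNLX15 and -0.61 within Montbéliarde. With the epithelial sum miR-19b had r = 0.60 (permutation p = 0.0575, adjusted p = 0.172, rho = 0.48, p = 0.137, adjusted p = 0.374), which was 0.28 without CNLX15 and CNLX21 and 0.12 within Montbéliarde. miR-19a had r = -0.71 with the stromal sum (permutation p = 0.0165, adjusted p = 0.0988, rho = -0.71, p = 0.0184, adjusted p = 0.220), which was -0.62 without CNLX1 and CNLX15 and -0.37 within Montbéliarde. None of the 12 relations, which were computed after the values were seen, passed after adjustment. The part of cell composition in the breed differences was not tested.

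Members of a cluster are cut from a shared transcript, so proportions were also compared, as reads per read of miR-17-5p in the same library, which removes library depth. The 3 paralog-only members share no transcript with miR-17-5p, and reads of miR-19b and miR-92a may come from either cluster. miR-92a gave 52.3 ± 8.97 reads per read of miR-17-5p in Holstein (SD, n = 5) and 77.9 ± 13.9 in Montbéliarde (n = 6), a log2 difference of 0.57 (SE 0.15, exact two-sided permutation p = 0.0108, adjusted p = 0.0974 over 9 ratios). The ratio of miR-19b was 2.03 ± 0.105 against 1.62 ± 0.311 (log2 difference -0.35, SE 0.12, exact permutation p = 0.0303, adjusted p = 0.130), and that of miR-19a 0.179 ± 0.0165 against 0.129 ± 0.0415 (-0.52, SE 0.19, exact permutation p = 0.0433, adjusted p = 0.130). None of the 9 ratios passed after adjustment, and 3 of 9 had an unadjusted p under 0.05. The smallest p that 5 against 6 libraries allow in this exact permutation test is 0.00216. With miR-20a, the seed sister of miR-17-5p, as the reference, 2 ratios passed, that of miR-19b with a log2 difference of -0.36 (exact permutation p = 0.00433, adjusted p = 0.0390) and that of miR-92a with 0.57 (adjusted p = 0.0487). Without the Holstein library CNLX9, which had the highest miR-92a level of its breed, the ratio of miR-92a to miR-17-5p passed (log2 difference 0.66, exact permutation, adjusted p = 0.0429).

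Among the members, miR-20a kept the closest proportion to miR-17-5p, with 0.428 ± 0.0455 reads per read over the 11 libraries (SD). It was 0.426 ± 0.0293 in Holstein and 0.431 ± 0.0586 in Montbéliarde (log2 difference 0.01, SE 0.10, exact permutation p = 0.961). Such steadiness was not particular to the cluster. The SD of this ratio was 10.6% of its mean, against 11.5% for miR-30c per read of miR-17-5p and 8.89% for miR-30c per read of miR-20a. The ratio of miR-18a was 0.195 ± 0.0334 and 0.276 ± 0.156 (log2 difference 0.35, SE 0.33, exact permutation p = 0.390, adjusted p = 0.877). Ratios of the paralog members did not differ beyond their spread, each with an adjusted p of 0.961 by exact permutation. That of miR-106a was 0.0923 ± 0.0208 and 0.0874 ± 0.0398 (log2 difference -0.27, SE 0.45, exact permutation p = 0.745). For miR-20b it was 0.0893 ± 0.0110 and 0.0970 ± 0.0354 (0.03, SE 0.27, exact permutation p = 0.935). For miR-18b it was 0.0300 ± 0.00917 and 0.0319 ± 0.0236 (-0.55, SE 0.86, exact permutation p = 0.775). The log2 difference of miR-18b had the opposite sign to the difference of its means, and without CNLX13 it was 0.24.

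**Figure D3:**
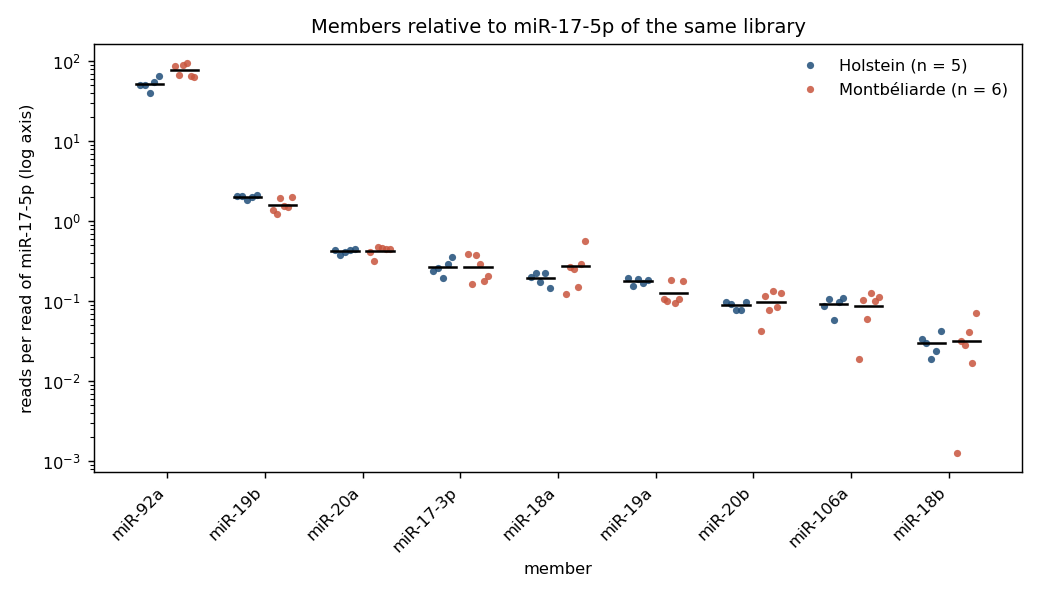
Reads of each member per read of miR-17-5p in the same library (log axis, where 0.5 was added to each count), in 5 Holstein (blue) and 6 Montbéliarde (red) libraries, with bars at the breed means. miR-92a averages 52.3 in Holstein and 77.9 in Montbéliarde, miR-19b 2.03 and 1.62, and miR-20a 0.426 and 0.431.

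As a share of reads, the miR-92 seed made up 92.3% ± 0.920 of the members' reads in Holstein (SD, n = 5, range 91.0% to 93.5%) and 95.1% ± 1.13 in Montbéliarde (n = 6, 93.1% to 96.1%). Leaving miR-92a out, the miR-19 seed made up 51.3% ± 0.685 of the remaining reads in Holstein (50.2% to 52.1%) and 44.1% ± 2.95 in Montbéliarde (40.2% to 48.3%). These ranges did not overlap, but how often shares of other miRNA groups fail to overlap was not computed. The miR-17 seed took 37.3% ± 0.880 and 41.5% ± 4.29, the miR-18 seed 5.19% ± 0.699 and 7.56% ± 3.46, and the 3p arm 6.20% ± 1.12 and 6.90% ± 2.73. These shares are parts of a fixed whole, so a higher share need not be a higher level. In normalized reads the miR-17 seed averaged 1299 and 1085, the 3p arm 215 and 176, and the miR-18 seed 181 and 213. The direct ratios of miR-19 members to miR-92a were examined after those values were seen and carry no test. miR-19b gave 0.0327 to 0.0462 reads per read of miR-92a in Holstein and 0.0160 to 0.0318 in Montbéliarde. miR-19a gave 0.00285 to 0.00468 and 0.00103 to 0.00279. Neither ratio overlapped between breeds, whereas miR-19a per read of miR-19b did, at 0.0748 to 0.101 and 0.0619 to 0.0957. The ratios to miR-92a set members with opposite signs of change against each other, which favours such a gap. How often ratios of other miRNA pairs fail to overlap was not computed.

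Co-variation was measured for all 45 pairs of members, as Pearson's r of log2(TMM-scaled CPM + 1) over the 11 libraries with 100000 permutations, and 6 pairs passed after adjustment. Of these, 3 joined miR-19b to members of the first cluster. miR-19b followed its seed sister miR-19a (r = 0.93, permutation p = 0.000740, adjusted p = 0.0115, Spearman's rho = 0.79, p = 0.00559, adjusted p = 0.0561, n = 11), miR-20a (r = 0.83, p = 0.000930, adjusted p = 0.0115, rho = 0.76, p = 0.00872, adjusted p = 0.0561) and miR-17-5p (r = 0.76, p = 0.00174, adjusted p = 0.0157, rho = 0.95, p = 7.0e-05, adjusted p = 0.00315). Without the 2 libraries farthest from the median of the partner these values of r became 0.94 (CNLX15 and CNLX19 left out), 0.74 (CNLX15 and CNLX17) and 0.92 (CNLX5 and CNLX17). Within the 6 Montbéliarde libraries they were 0.84, 0.81 and 0.50, and no value is given for the 5 Holstein libraries, since at least 6 were asked for a correlation.

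The other 3 were all the pairs of the paralog-only members. miR-20b followed miR-106a (r = 0.92, permutation p = 0.00102, adjusted p = 0.0115, rho = 0.69, p = 0.0231, adjusted p = 0.103, n = 11) and miR-18b (r = 0.90, p = 0.000170, adjusted p = 0.00765, rho = 0.86, p = 0.00124, adjusted p = 0.0279), and miR-106a followed miR-18b (r = 0.85, p = 0.00264, adjusted p = 0.0198, rho = 0.72, p = 0.0164, adjusted p = 0.0924). Without CNLX13 and CNLX17 the correlation of miR-106a fell to 0.42 with miR-20b and 0.55 with miR-18b, so both rest largely on those libraries, and without CNLX13 and CNLX23 that of miR-18b with miR-20b was 0.73. Within Montbéliarde, which holds all of these libraries, the 3 values were 0.96, 0.92 and 0.86 for miR-106a with miR-20b, miR-18b with miR-20b and miR-106a with miR-18b. Over the 10 pairs of members from the first cluster only, the median r was 0.34 (range -0.57 to 0.75), and over the 15 pairs between the clusters 0.42 (-0.31 to 0.62), and 0 of the 10 and 0 of the 15 passed. The lowest r in the first cluster was that of miR-17-3p with miR-18a (-0.57, permutation p = 0.0680, adjusted p = 0.228). Of the 9 correlations of miR-92a with other members 0 passed, and r ranged from -0.69 with miR-19a (permutation p = 0.0152, adjusted p = 0.0854) to 0.21 with miR-17-3p. Within Montbéliarde these were -0.33 and 0.68. With miR-19b, r was -0.54 over all libraries and 0.05 within Montbéliarde. Values over all libraries include the breed difference.

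**Figure D4:**
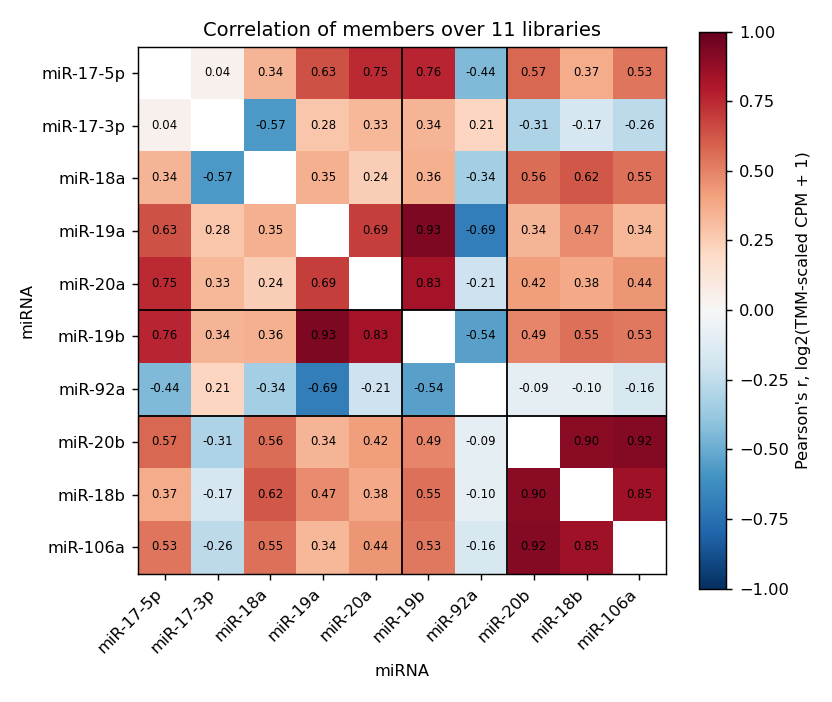
Pearson's r between members over 11 libraries, on log2(TMM-scaled CPM + 1), coloured from -1 (blue) to 1 (red). Black lines separate members from the first cluster only, the 2 members with genes in both clusters (miR-19b and miR-92a) and the 3 from the paralog only, which form a red block with r between 0.85 and 0.92.

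miR-363, a miR-92 seed relative encoded only beside miR-106a, was not a member and gave a separate view of the paralog. Of its 10 correlations with members, those with the 3 paralog-only members passed. These were miR-18b (r = 0.83, permutation p = 0.00118, adjusted p = 0.0118, n = 11), miR-106a (r = 0.82, permutation p = 0.00403, adjusted p = 0.0201) and miR-20b (r = 0.75, permutation p = 0.0105, adjusted p = 0.0351). Spearman's rho was 0.90 (p = 0.000260, adjusted p = 0.00260), 0.73 (p = 0.0151, adjusted p = 0.0687) and 0.70 (p = 0.0206, adjusted p = 0.0687) for the same members. Without CNLX5 and CNLX13 the 3 values of r became 0.71, 0.62 and 0.69, and within Montbéliarde they were 0.92, 0.92 and 0.92. With the 7 other members r ranged from 0.05 (miR-17-3p) to 0.42 (miR-19b), and none of these passed. miR-363 gave 467 ± 141 normalized reads in Holstein and 396 ± 131 in Montbéliarde (log2 fold change -0.23, SE 0.28, adjusted p = 0.759 by edgeR), above each of the paralog-only members: 7.32 ± 3.21 reads per read of miR-106a (SD, n = 11, range 4.69 to 15.3).

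The library lowest for all 4 miRNAs of the paralog was CNLX13, which also had the fewest counted reads. It gave 7 reads of miR-106a, or 11.7 normalized reads, 6.47-fold below the median of the other libraries (75.4). In CPM this was 1.15, with a 95% Wilson interval of 0.557 to 2.37, which like the floors here covers counting error only. The same library gave 16 reads of miR-20b (26.7 normalized, 2.82-fold below the median of the others) and 114 reads of miR-363 (190.0 normalized, 2.40-fold below). Of miR-18b it gave 0 of 6087865 counted reads, which allows a share of up to 4.93e-05%, or 5.0 normalized reads, where the other libraries lay between 10.98 and 54.9. Members of the first cluster only were mostly below the median of the others in CNLX13 too, by less than miR-106a: miR-18a by 2.08-fold (80.0 normalized reads, the lowest of the 11 libraries), miR-19a by 1.91-fold, miR-20a by 1.22-fold and miR-17-5p by 1.18-fold, with miR-19a and miR-17-5p the second lowest. The passenger arm miR-17-3p was the second highest (253). Of the members with genes in both clusters, miR-19b was 1.74-fold below and the second lowest, and miR-92a was the second highest (56470). The epithelial marker sum of CNLX13 was the highest of the 11 libraries (485711). Its erythroid (44306) and endothelial (297167) sums were the second highest and its leukocyte sum (32396) the third highest. From the highest, its stromal sum ranked 6 and its muscle sum 8. The part of any of these in the low paralog values was not tested.

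**Figure D5:**
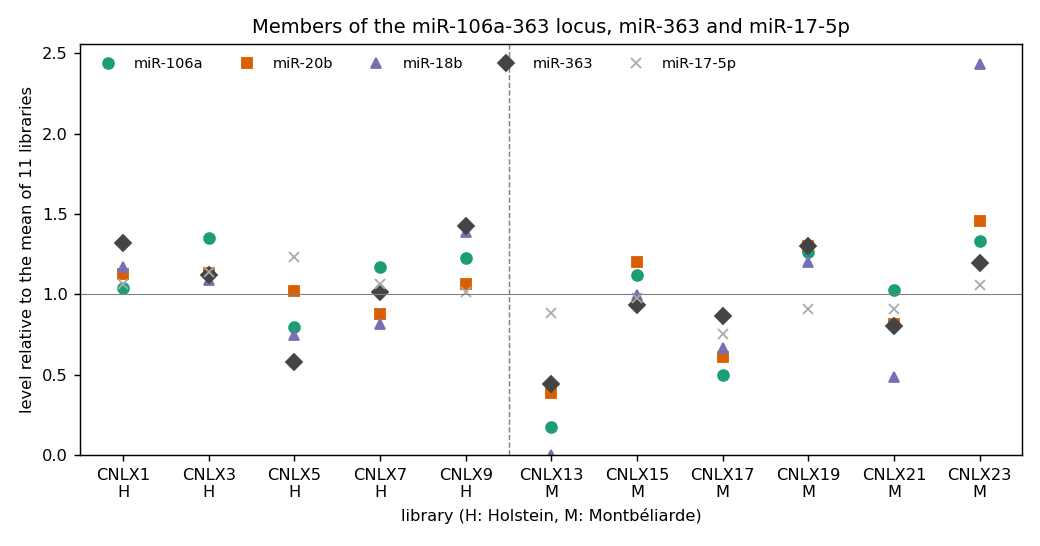
Level of miR-106a, miR-20b, miR-18b and miR-363, and of miR-17-5p for comparison, in each library (H, Holstein; M, Montbéliarde) relative to its mean over the 11 libraries (line at 1). In CNLX13 the 4 miRNAs of the paralog lie lowest while miR-17-5p does not, and in CNLX23 miR-18b is the highest point.

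The Montbéliarde library CNLX23 was the reverse for some members. This library also had the highest TMM scaling factor (1.19, against 0.896 to 1.05 in the others). It had the highest miR-18a (438 normalized reads, 2.77-fold above the median of the others), miR-18b (54.9, 2.68-fold above) and miR-20b (99.6, 1.39-fold above), and the highest level of no other member. Thus both members of the miR-18 seed, which stem from different clusters, were highest in the same library. Over all 11 libraries miR-18a and miR-18b had r = 0.62 (permutation p = 0.0547, adjusted p = 0.224, rho = 0.12, p = 0.735, adjusted p = 0.872), and without CNLX13 and CNLX23 r was -0.57, so the relation rests on those libraries. The seed sisters miR-20a and miR-20b had r = 0.42 (permutation p = 0.187, adjusted p = 0.350), and miR-17-5p and miR-106a r = 0.53 (p = 0.114, adjusted p = 0.271). The near-identical sequences within each seed group could share reads, since the handling of reads with several matches is not given in the sources used here.

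The third paralogous cluster, miR-106b-25, served as a fixed list of relatives beside miR-363 and miR-92b. By edgeR 0 of the 5 relatives passed, where 0.364% of the 550 miRNAs tested did so. miR-25, which shares the seed of miR-92a, averaged 15749 ± 1279 normalized reads in Holstein and 20363 ± 1884 in Montbéliarde, with breeds that did not overlap (log2 fold change 0.37, SE 0.13, adjusted p = 0.222 by edgeR and 0.0356 by DESeq2). Over all miRNAs tested, breeds did not overlap for 2%, and DESeq2 called 4.24% of the 495 to which it gave an adjusted p. miR-93, of the miR-17 seed family, averaged 2811 ± 195 and 3501 ± 649 (0.31, SE 0.16, adjusted p = 0.377 by edgeR), and miR-106b, of the same family, 579 ± 26.0 and 629 ± 102 (0.11, SE 0.16, adjusted p = 0.789 by edgeR). miR-92b averaged 1949.8 ± 219.97 and 2551 ± 795 (0.38, SE 0.21, adjusted p = 0.412 by edgeR). Estimates of the miR-92 seed relatives miR-25 and miR-92b thus had the sign of miR-92a, whereas miR-363, also of that seed, had the other sign.

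Other miRNAs whose level over the 11 libraries was most like that of the members were sought among 202 with a mean of at least 100 reads, by Pearson's r as a description without a test. For the sum of all members, which miR-92a dominates, these were miR-339b (r = 0.74), miR-107 (0.74), miR-381 (0.73), miR-128 (0.72) and miR-33b (0.61), and the most opposite were miR-148b (-0.81) and miR-374b (-0.79). For the sum without miR-92a, a sum added after the values were seen, they were miR-500 (0.92), miR-362-5p (0.87), miR-664b (0.86), miR-669 (0.83) and miR-30c (0.78), with miR-143 (-0.77) and miR-504 (-0.72) at the other end. For the 3 paralog-only members they were miR-30b-5p (0.81), miR-369-3p (0.75), miR-145 (0.70), miR-424-5p (0.70) and miR-326 (0.68), against miR-151-3p (-0.78) and miR-151-5p (-0.70). No miRNA appeared in more than 1 of these lists. Both miR-500 and miR-362-5p, closest to the members without miR-92a, had lower estimates in Montbéliarde, as those members did on balance (log2 fold changes of -0.65 and -0.89, adjusted p = 0.213 and 0.0964 by edgeR), and all such likeness over these libraries includes the breed difference.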

How the data were processed

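A single small RNA library was sequenced for each of 11 cows. Only adaptor-free inserts between 15 and 40 nucleotides long entered the quantification by the authors, who counted known and predicted bovine miRNAs with ncPRO-seq and miRDeep2. In addition, bcl2fastq 2.17.1.14 and DESeq2 1.18.1 are named in the submitters' processing notes. They deposited raw read counts per mature miRNA, which were used here. Their 11 columns of normalized values and their columns of breed means, fold changes and p-values were not used. How reads matching several miRNAs were shared out is not given in the sources used here, and ligation and PCR without molecular identifiers can change the level of one miRNA against another.

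Breeds were taken from the labels. Counts were normalized by TMM and tested with the quasi-likelihood test of edgeR 4.0.16 (R 4.3.3) over the 550 miRNAs with at least 10 summed reads, with Benjamini-Hochberg adjustment and a threshold of 0.05. Printed levels were counts divided by DESeq2 size factors. The SE of an edgeR log2 fold change was its absolute value divided by the square root of its F statistic. Alternatives were DESeq2 1.42.0, limma-voom 3.58.1, other scalings and filters, library size as a covariate, and leaving out each library. Ratios were tested by exact permutation of the breed labels with 0.5 added to counts, neighbours by 2048 sign changes, and correlations by 100000 permutations. P-values measure the spread between cows, 1 library each. Depth, 6087865 to 16808976 counted reads per library, limits the precision of members with few reads. The scripts were tested on simulated data. The members, relatives and marker lists were chosen with earlier results of these data known. Named miRNAs were the members, the relatives, the markers and, for each sum, the 5 most alike and the 2 most opposite. No mature sequence table was in the reference used here, so no sequences are printed.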

Additional observations from a re-analysis of the deposited data

Results flagged for a closer look

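In 38 groups of levels and ratios (each member in each breed), the highest or lowest library was compared with the range of its breed by Dixon's criterion; chance alone gives about 1 in 20, or 1.9 of these, and 2 were found. Both concern the Montbéliarde library CNLX23. Its miR-19b level, 1588 normalized reads, stood apart from the other Montbéliarde libraries by 0.742 of the breed's range, and its miR-18a level, 438 normalized reads, by 0.683 of the range.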

How the results depend on the processing

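The number of miRNAs called between breeds, 2 by edgeR, was 21 with DESeq2, 1 when scaled by total counts only, 0 with RLE scaling (82 at an unadjusted p of at most 0.05), and 0 to 6 when 1 library was left out (60 to 99 unadjusted). Of the members, 0 were called, but 2 with DESeq2 and 0 to 2 when 1 library was left out (miR-19a and miR-19b without CNLX23). Of the 9 ratios 0 passed, but 2 with miR-20a as the reference and 0 to 1 when 1 library was left out. The neighbouring pairs that differed numbered 7 each time, with the order of members held fixed. Some estimates changed sign. Of those near 0, the log2 fold change of miR-18b was 0.026 with total counts only and 0.061 with library size as a covariate, and that of miR-20b 0.065 with the covariate. Larger estimates turned as well. Without CNLX13, the log2 difference in ratio went from -0.55 to 0.24 for miR-18b and from -0.27 to 0.12 for miR-106a. Without CNLX23, the log2 fold change of miR-18a went from 0.27 to -0.17. The differences in the ratios of miR-17-3p and miR-18b were 0.000219 and 0.00189 without the logarithm. When 1 library was left out, the log2 fold change ranged from -0.17 to 0.45 for miR-18a, -0.58 to 0.19 for miR-18b and -0.26 to 0.052 for miR-20b, and the log2 difference in ratio from -0.18 to 0.065 for miR-17-3p, -0.031 to 0.092 for miR-20a, -0.086 to 0.25 for miR-20b, -0.43 to 0.12 for miR-106a and -0.92 to 0.24 for miR-18b. The cause was not tested. Of 190 alternative log2 fold changes 173 kept their direction and side of the threshold, as did 97 of 117 ratios. miR-18b, with at most 70 reads per library, is limited by depth. No paired analysis was possible because the breeds are different cows and no matching between them is given in the sources used here.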
